A study of Mus musculus with 6 samples.

Results

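The genes described here are 9 components and regulators of the complement system in the mouse renal cortex. They are C1qa, C1qb and C1qc, the 3 chains of C1q, then C3, C4b and Cfb, the receptor gene C5ar1, and the membrane regulators Cd55 and Cd59a. They were taken from the authors' count table by gene symbol alone, from a list drawn up with earlier results of these data known. All 9 were found among the 21957 genes with a value in all 6 libraries, and all 9 were among the 13609 genes tested. The study measured gene expression by RNA-seq in wild-type C57BL/6 mice, an inbred laboratory strain, in 2 groups of 3 libraries. IR24h libraries came from cortex taken 24 h after blood flow returned to kidneys whose renal pedicles had both been clamped for 30 min, a common model of acute injury of the kidney. Sham libraries came from cortex of mice of the same strain labelled as sham operated. The sources used here give neither the age and sex of the animals nor whether the libraries are from different mice, so p-values measure the spread between these libraries.

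Complement is a chain of plasma proteins that marks surfaces for removal and recruits leukocytes. It starts by the classical route, where C1q binds a target and its proteases cut C4 and C2, by the lectin route, where sugar-binding proteins do the same, or by the alternative route, where factor B joins C3b to form an enzyme that cuts more C3. All routes meet at C3, and the fragments that follow include C5a, which acts through C5ar1, and the membrane attack complex, which starts at C5b and ends with C9. Host cells carry regulators such as CD55, which breaks up the C3-cutting enzymes, and CD59, which stops the last step of the membrane attack complex. The liver makes most of the circulating complement, macrophages make most C1q, and tubular cells of the kidney can make C3, C4 and factor B themselves.

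The libraries held 12877237 to 17061844 counts. Mitochondrial genes took 13.1 to 14.2% of the counts in sham and 68.9, 26.2 and 49.2% in IR24h libraries 1, 2 and 3, which left fewer counts for all other genes in the IR24h group. Levels are given as CPM, counts scaled to a common library size with the trimmed mean of M-values. IR24h 2 stood apart from the other 2 injured libraries. Its correlation of log2 CPM over genes was 0.812 and 0.829 with IR24h 1 and 3 and 0.835 to 0.844 with the sham libraries, while IR24h 1 and 3 had 0.905 with each other. The implied gene length behind the deposited FPKM values differed between the groups for 13.1% of the genes that could be compared, but it was the same in both groups for all 9 genes here. Markers of the proximal tubule, the main cell type of the cortex, summed to 15590 to 16580 CPM in sham and 2916 to 4701 CPM in IR24h. All 8 genes of a list of known tubular injury genes, led by Spp1, were called higher in IR24h, against 8.65% of all genes tested.

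Across the 9 genes, C3 rose and Cfb fell. With edgeR's quasi-likelihood test and Benjamini-Hochberg adjustment over all genes, called at an adjusted p under 0.05, 1 of 9 was higher, against 8.65% of all genes tested, 1 of 9 was lower, against 7.62%, and 7 were not called. In C3 and C5ar1 every IR24h library lay above every sham library, as for 19.9% of all genes. In Cfb and Cd55 every IR24h library lay below every sham library, as for 21.7% of all genes. The median log2 fold change of the 9 genes was 0.34, with 5 positive and 4 negative, and that of all genes tested was 0.05. The counts of 1 and 1 are close to what the shares over all genes give for 9 genes.

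**Figure D1:**
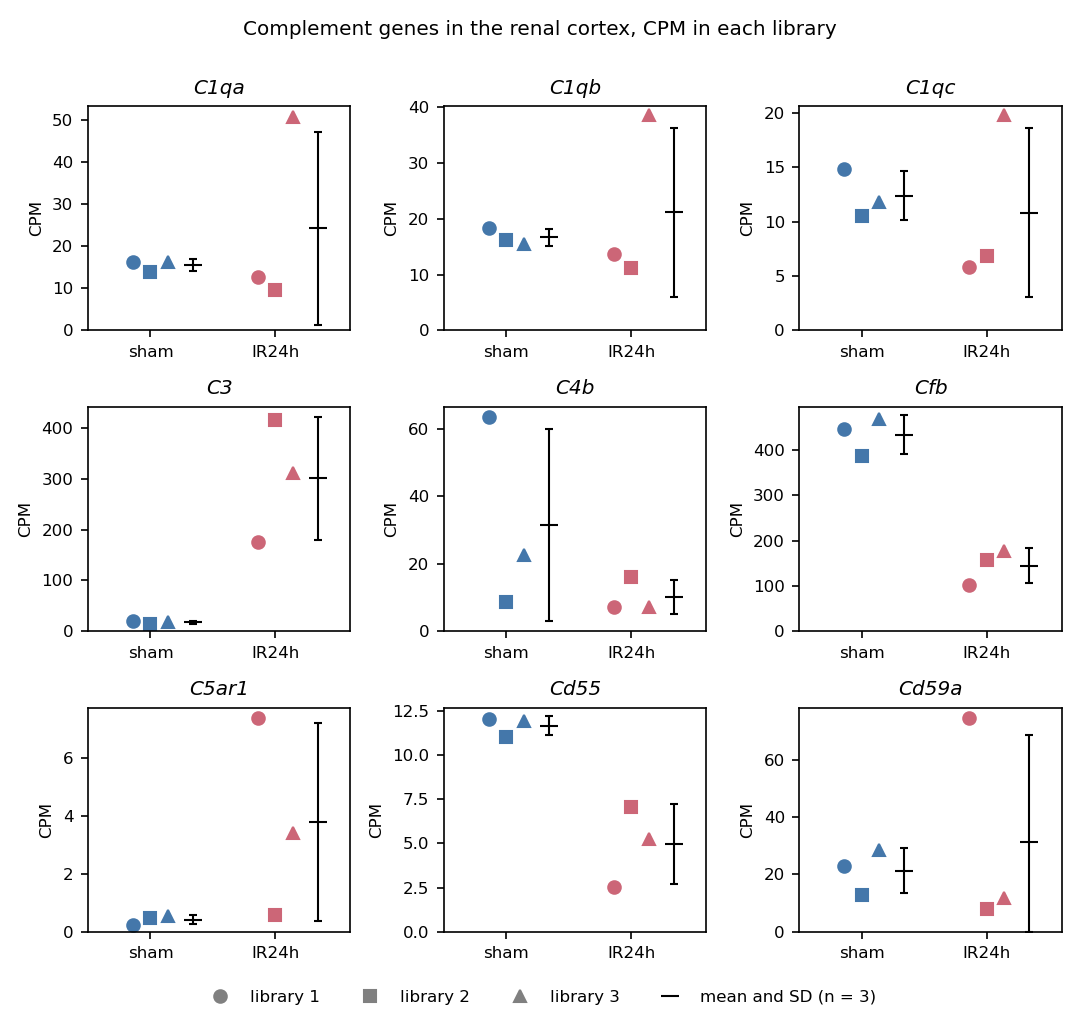
CPM of each of the 9 complement genes (y axis, linear, one scale per gene) in the 3 sham libraries (blue) and the 3 IR24h libraries (red), with library 1 as a circle, 2 as a square and 3 as a triangle, and the mean with its SD to the right of each group (cut at 0 for Cd59a in IR24h). The groups are apart for C3, Cfb, C5ar1 and Cd55 and overlap for the other 5 genes, where a single library lies far from the rest of its group in the C1q chains, C4b and Cd59a.

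C3 encodes the protein on which all routes of activation meet. Its CPM was 20.7, 14.4 and 17.7 in sham 1, 2 and 3 and 175.4, 415.7 and 311.8 in IR24h 1, 2 and 3. All 3 injured libraries were far above the sham libraries, and IR24h 2 was the highest. C3 had a log2 fold change of 4.09 ± 0.40 (SE, n = 3 libraries a group), with a 95% interval of 3.16 to 5.03, and the edgeR adjusted p was 0.00151. In bulk tissue a change in the number of cells of a type and a change in RNA per cell cannot be told apart, here or for any other gene below. C3 passed the threshold under each of the 15 alternative settings, with log2 fold changes of 3.58 to 4.58.

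The C3 gene lies on chromosome 17 at chr17:57203970-57228136, minus strand (GENCODE M21, GRCm38). Its promoter is printed because C3 was the gene with the highest log2 fold change among the 9. The sequence holds the 250 bases before the RefSeq start (GRCm38.p6, chr17:57228137-57228386, minus strand), read 5′ to 3′, with motif matches in capitals.
C3: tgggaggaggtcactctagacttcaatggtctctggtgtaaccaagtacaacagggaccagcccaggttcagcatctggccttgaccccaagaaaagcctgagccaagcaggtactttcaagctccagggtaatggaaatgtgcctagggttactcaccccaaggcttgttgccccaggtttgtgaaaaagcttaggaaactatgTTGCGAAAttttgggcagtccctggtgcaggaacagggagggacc
The motifs searched on both strands of these 250 bases in the promoters of the 6 genes with a RefSeq entry (C1qb, C1qc, C3, C5ar1, Cd55 and Cd59a) were kappa-B by its usual consensus, C/EBP as TTNNGCAA, GAS as TTCNNNGAA, IRF as GAAANNGAA, PU.1 as GAGGAA, AP-1 as TGANTCA, and the TATA box as TATAAA. The capitals in C3 mark a match to C/EBP on the opposite strand, 45 to 38 bases before the start. C/EBP proteins are factors of the acute-phase response, and a match to this motif was present in 9.56% of 32851 gene starts. No match to the other 6 motifs was found in this window, and no matches overlapped in any of the printed sequences.

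Cfb encodes factor B, the protease of the alternative route's C3-cutting enzyme. Its CPM was 447, 386 and 468 in sham 1, 2 and 3 and 101, 156 and 177 in IR24h 1, 2 and 3. Every injured library was below every sham library, and IR24h 1 was the lowest. Cfb had a log2 fold change of -1.58 ± 0.30 (SE, n = 3 a group), with a 95% interval of -2.28 to -0.89, and the edgeR adjusted p was 0.0143, a 3.00-fold lower fitted level. The call was lost when any sham library was left out (adjusted p 0.0738, 0.0652 and 0.0786 without sham 1, 2 and 3) and where libraries were scaled by their total counts alone (0.0579), with log2 fold changes of -1.97 to -1.50 in these fits. Over all genes, 1037 were called lower with all libraries and 237, 212 and 196 without sham 1, 2 and 3. The direction of Cfb was negative under all 15 alternatives.

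Cfb is on chromosome 17 at chr17:34856374-34862518, minus strand, and 85 bases separate it from its neighbour C2, at chr17:34862604-34898265 on the same strand, whose 3′ end faces the start of Cfb. C2 encodes the serine protease of the classical and lectin routes, the counterpart of factor B. Its CPM was 59.7, 56.0 and 60.8 in sham 1, 2 and 3 and 9.66, 12.6 and 7.25 in IR24h 1, 2 and 3. The injured libraries were all below the sham libraries, with a log2 fold change of -2.58 ± 0.29 (SE, n = 3 a group) and an edgeR adjusted p of 0.00256, and C2 was called under all 15 alternatives. Of the 9 tested genes that the annotation places from C4b to C2 on this chromosome, a stretch chosen after the values were seen, 2 were lower (Cfb and C2), against 7.62% of all genes tested, and 0 were higher, against 8.65%. The annotation also holds Gm20547, a transcript on the same strand that covers 79.5% of the exon bases of Cfb and 42.8% of those of C2, so reads may have been split among them. Gm20547 had 73.4, 46.2 and 29.7 CPM in sham 1, 2 and 3 against 0.426, 53.9 and 14.1 CPM in IR24h 1, 2 and 3. It was not called (log2 fold change -1.11, edgeR adjusted p 0.515).

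By mean level per kilobase, C3 went from the seventh to the first place among the 9 genes, and Cfb from the first to the second. Levels of different genes were compared as CPM per kilobase, with the length taken from the deposited FPKM values. That length was 5680 bases for C3 and 4800 for Cfb, against 5143 and 2825 exon bases in GENCODE. In sham, Cfb per kilobase stood above C3 by ratios of 25.6, 31.7 and 31.2 in libraries 1, 2 and 3. In IR24h, C3 per kilobase stood above Cfb by ratios of 1.47, 2.25 and 1.49. This IR24h order depends on the length used, and with the GENCODE lengths Cfb is slightly above C3 in IR24h 1 and 3. As a share of the summed level per kilobase of the 9 genes, C3 went from 2.06 to 2.35% in the sham libraries to 28.7 to 54.5% in the IR24h libraries, and Cfb from 60.2 to 65.4% to 19.3 to 24.2%. The ranges of the 2 groups did not meet for either gene. These ratios and shares are descriptions and carry no test.

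The rest of the order can be read on the same scale, with the same dependence on the lengths used. In sham, Cfb led with 90.4 ± 8.84 CPM per kilobase (mean ± SD, n = 3). C1qb at 15.3 ± 1.37 and C1qa at 14.9 ± 1.33 followed and did not differ beyond their spread. Cd59a at 5.98 ± 2.22, C1qc at 5.75 ± 1.04, C4b at 5.01 ± 4.52 and C3 at 3.10 ± 0.550 came next, and the libraries of neighbours among these 4 overlapped. Cd55 stood at 1.88 ± 0.0865, within the range of C4b, and C5ar1 was last at 0.0748 ± 0.0297. In IR24h the order began with C3 at 53.0 ± 21.2 and Cfb at 30.1 ± 8.15. Their ranges overlapped, although on these lengths C3 was the higher in each library. C1qa at 23.4 ± 22.1, C1qb at 19.4 ± 13.9 and Cd59a at 8.83 ± 10.5 had wide ranges that overlapped each other. The ranges of C1qa and C1qb also overlapped that of Cfb, which Cd59a did not reach. C1qc at 5.03 ± 3.61 overlapped Cd59a. C4b at 1.6 ± 0.822 was below C1qc in each library. Cd55 at 0.795 ± 0.364 and C5ar1 at 0.681 ± 0.616 were lowest and overlapped.

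The 3 C1q chains, which join in equal numbers in the C1q protein, were not called, and each was highest in IR24h 3. They lie side by side on chromosome 4, minus strand, within 18.7 kb: C1qb at chr4:136880129-136886187, C1qc at chr4:136889804-136893065 and C1qa at chr4:136895917-136898803. C1qa had 16.3, 13.9 and 16.3 CPM in sham 1, 2 and 3 against 12.6, 9.51 and 50.9 CPM in IR24h 1, 2 and 3. C1qb had 18.3, 16.3 and 15.4 CPM in sham against 13.8, 11.1 and 38.5 CPM in IR24h. C1qc had 14.8, 10.5 and 11.8 CPM in sham against 5.82, 6.85 and 19.8 CPM in IR24h. In all 3 chains IR24h 1 and 2 were below every sham library and IR24h 3 was above every one, so the groups overlapped. The log2 fold changes were 0.65 ± 0.61 for C1qa, 0.34 ± 0.47 for C1qb and -0.19 ± 0.49 for C1qc (SE, n = 3 a group), with edgeR adjusted p of 0.487, 0.643 and 0.809. Their 95% intervals reached from -0.77 to 2.06, from -0.76 to 1.45 and from -1.33 to 0.95, so changes of more than 2-fold are within them.

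The sign of the C1q values depended on single libraries. Without IR24h 3 they were -0.50, -0.43 and -0.96 for C1qa, C1qb and C1qc (edgeR adjusted p 0.272, 0.313 and 0.0956). Without IR24h 2 they were 1.04, 0.65 and 0.07 (edgeR adjusted p 0.131, 0.214 and 0.918). Without IR24h 1 the value of C1qc was 0.09 (adjusted p 0.914). The macrophage and monocyte markers summed to 169 to 188 CPM in sham against to 284, 214 and 329 CPM in IR24h 1, 2 and 3. IR24h 3, the library with the highest C1q, was also highest in this sum, but IR24h 1 had the second-highest sum with low C1q. Of the 19 tested markers of that list, 4 were higher (8.65% over all genes), 1 was lower (7.62%) and 14 were not called, with none at 0 in all libraries, and the part of these cells in the C1q values was not tested. The marker with the highest mean CPM over all 6 libraries, not scaled by length, was Csf1r, the receptor for the main macrophage growth factor. It had 34.6, 34.9 and 41.1 CPM in sham against 56.5, 16.8 and 63.9 CPM in IR24h (log2 fold change 0.31, edgeR adjusted p 0.672). Lyz2, a lysozyme gene of myeloid cells, was above Csf1r per kilobase in the mean of each group and was called, with 7.14 to 8.47 CPM in sham and 35.2 to 72.9 CPM in IR24h (log2 fold change 2.91, edgeR adjusted p 0.00315).

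The promoters of C1qb and C1qc are printed because the chains moved together across the libraries. Each sequence is the 250 bases before the RefSeq start (GRCm38.p6, minus strand), at chr4:136886201-136886450 for C1qb and chr4:136892915-136893164 for C1qc, read 5′ to 3′ with motif matches in capitals.
C1qb: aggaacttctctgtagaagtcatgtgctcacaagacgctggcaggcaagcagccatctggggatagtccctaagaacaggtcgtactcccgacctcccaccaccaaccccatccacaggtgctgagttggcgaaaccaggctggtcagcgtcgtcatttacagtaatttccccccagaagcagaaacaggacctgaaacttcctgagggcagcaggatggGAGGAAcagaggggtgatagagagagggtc
C1qc: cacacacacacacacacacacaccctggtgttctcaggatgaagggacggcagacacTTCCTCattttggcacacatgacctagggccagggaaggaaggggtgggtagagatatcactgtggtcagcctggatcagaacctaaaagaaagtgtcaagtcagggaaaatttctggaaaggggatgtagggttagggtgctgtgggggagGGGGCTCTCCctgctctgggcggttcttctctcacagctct
In C1qb the capitals mark PU.1, 30 to 25 bases before the start. In C1qc they mark PU.1 on the opposite strand, 193 to 188 bases before the start, and kappa-B, 41 to 32 bases before it. The GENCODE gene of C1qc starts further upstream, at chr4:136893065. Part of this window, with the kappa-B match, therefore lies inside that gene. PU.1 is a factor of the macrophage lineage. A match to PU.1 was present in 23.3% and one to kappa-B in 7.25% of the 32851 starts, so PU.1 letters alone are common. Among the 6 genes with an entry, 3 held PU.1 (Cd59a is the third), 2 held IRF (C5ar1 and Cd59a), 1 held kappa-B and 1 held C/EBP. The IRF match of C5ar1 also lies inside its GENCODE gene. GAS, AP-1 and TATA had 0 matches in the 6, against 7.02, 6.75 and 12.4% of all starts, and IRF was present in 7.13% of all starts. These matches describe the letters only.

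Within the trio the balance of the chains differed between libraries. Of the length-scaled counts of the 3 chains, C1qc made up 17.5, 14.7 and 15.5% in sham 1, 2 and 3 and 9.84, 14.1 and 9.83% in IR24h 1, 2 and 3. The mean was 15.9% ± 1.47 in sham and 11.3% ± 2.47 in IR24h (SD, n = 3), and the ranges did not overlap although IR24h 2 came within 1 percentage point of sham 2. C1qa made up 41.5% ± 2.55 in sham and 45.7% ± 6.04 in IR24h, and C1qb 42.6% ± 2.47 and 43.1% ± 4.52, both with overlapping ranges. These shares carry no test. Behind them are 260, 218 and 218 C1qc counts in sham 1, 2 and 3 and 41, 134 and 226 in IR24h 1, 2 and 3.

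**Figure D2:**
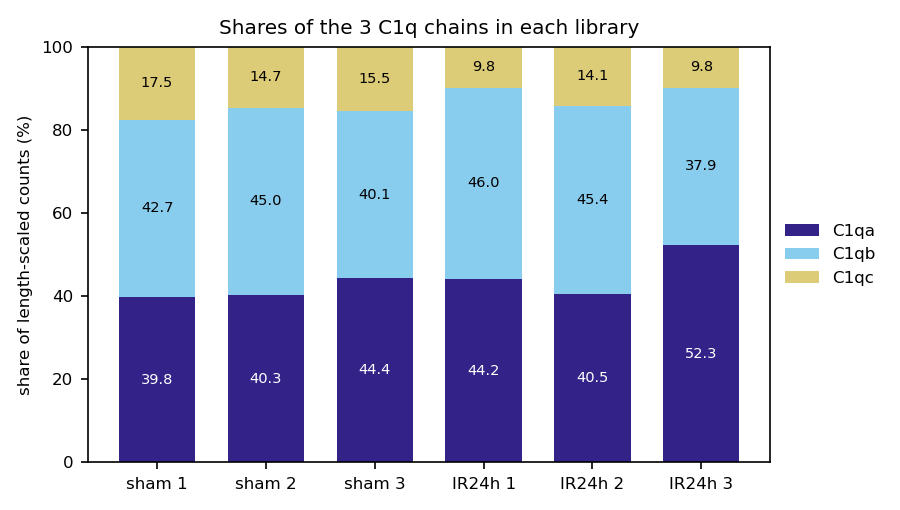
Share of C1qa, C1qb and C1qc (stacked, in percent) in the length-scaled counts of the 3 chains, one bar per library on the x axis. The C1qc share is 14.7 to 17.5% in sham and 9.83 to 14.1% in IR24h.

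C4b encodes C4, the protein that C1q's proteases cut in the classical route (chr17:34728380-34743882, minus strand). It had 63.5, 8.75 and 22.4 CPM in sham 1, 2 and 3 against 7.10, 16.1 and 7.08 CPM in IR24h 1, 2 and 3. The groups overlapped, because sham 2 was below IR24h 2, and sham 1 was far above the other libraries. The log2 fold change was -1.63 ± 0.71 (SE, n = 3 a group) with an edgeR adjusted p of 0.151. Without sham 1 it was -0.63 (adjusted p 0.545), and without IR24h 2 it was -2.16 (0.0631). Of the 50-base stretches of C4b, 34.6% also occur in C4a, its near copy, so how such reads were counted bears on this value. C4a itself was not found by symbol among the genes with a value in all 6 libraries, so its level cannot be set beside that of C4b.

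C5ar1, the receptor for C5a on neutrophils and macrophages (chr7:16246743-16259540, minus strand), rested on few counts. It had 4, 10 and 10 counts in sham 1, 2 and 3 and 52, 11 and 39 in IR24h 1, 2 and 3, which is 0.228, 0.481 and 0.539 CPM against 7.39, 0.562 and 3.41 CPM. Every injured library was above every sham library, but IR24h 2, with 11 counts, was barely above the 10 of sham 2 and 3. The log2 fold change of 3.11 ± 0.91 (SE, n = 3 a group; 95% interval 0.99 to 5.23) missed the threshold, with an edgeR adjusted p of 0.0565. Without IR24h 2 it was 3.63 with an adjusted p of 0.00224, and with IR24h 2 alone against sham it was 0.43 (0.68). DESeq2 on all libraries called it (3.18, adjusted p 0.00282). Of 12 neutrophil markers listed, 9 were too low to be tested. The 3 tested, led by S100a9, an antimicrobial calcium-binding protein, were all called higher, against 8.65% of all genes tested. Among the untested, Retnlg and Mmp8 were above sham in each injured library. Ltf had 0 counts in IR24h 2 and 3, and Ngp had counts in sham 2 only. The neutrophil list summed to 1.03 to 1.71 CPM in sham against 17.9, 6.75 and 19.1 CPM in IR24h 1, 2 and 3. IR24h 2 was again the lowest of the injured libraries, as it was in the macrophage, mesenchymal and endothelial marker sums. Ly6g, Mpo, Camp and Elane of that list had no counts in any library, which allows up to 3 counts in each, or 0.144 to 0.426 CPM. The part of these cells in the C5ar1 value was not tested.

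Of the 2 membrane regulators, Cd55 was lower in each injured library without passing the threshold, and Cd59a had no clear direction. Cd55 (chr1:130439027-130462744, minus strand) had 12.0, 11.1 and 11.9 CPM in sham 1, 2 and 3 against 2.56, 7.05 and 5.24 CPM in IR24h 1, 2 and 3. The sham libraries were close to each other, and all injured libraries were below them, IR24h 2 the least. For Cd55 the log2 fold change was -1.21 ± 0.39 (SE, n = 3 a group; 95% interval -2.12 to -0.31) with an edgeR adjusted p of 0.0711. It was called without IR24h 2 (-1.55, adjusted p 0.00961), with IR24h 2 alone against sham (-0.71, adjusted p 0.0417) and by DESeq2 (-1.20, adjusted p 0.0194). The near copy Cd55b shares 8.0% of the 50-base stretches of Cd55 and had at most 13 counts in a library.

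Cd59a (chr2:104095801-104115354, plus strand) had 22.8, 12.7 and 28.4 CPM in sham 1, 2 and 3 against 74.6, 8.08 and 11.7 CPM in IR24h 1, 2 and 3. IR24h 1 was above all sham libraries, IR24h 2 and 3 were below all of them, and the groups overlapped. The log2 fold change was 0.55 ± 0.81 (SE, n = 3 a group; 95% interval -1.34 to 2.44) with an edgeR adjusted p of 0.663. Without IR24h 1 it was -1.11 (adjusted p 0.142). It was below 0 under 6 of the 15 alternatives, so no direction is given for this gene. The sum of the mesenchymal markers, led by Col3a1, a collagen of connective tissue, was also highest in IR24h 1. It was 155 to 190 CPM in sham against 1785, 341 and 861 CPM in IR24h 1, 2 and 3. Of the 8 tested, 5 were called higher (8.65% over all genes) and 0 lower (7.62%). Col3a1, Col1a1, Pdgfra, Pdgfrb and Dcn were each highest in IR24h 1. Acta2 was highest in IR24h 3 and Lum in IR24h 2, and Ren1 was below sham in each injured library. Whether this bears on Cd59a was not tested.

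**Figure D3:**
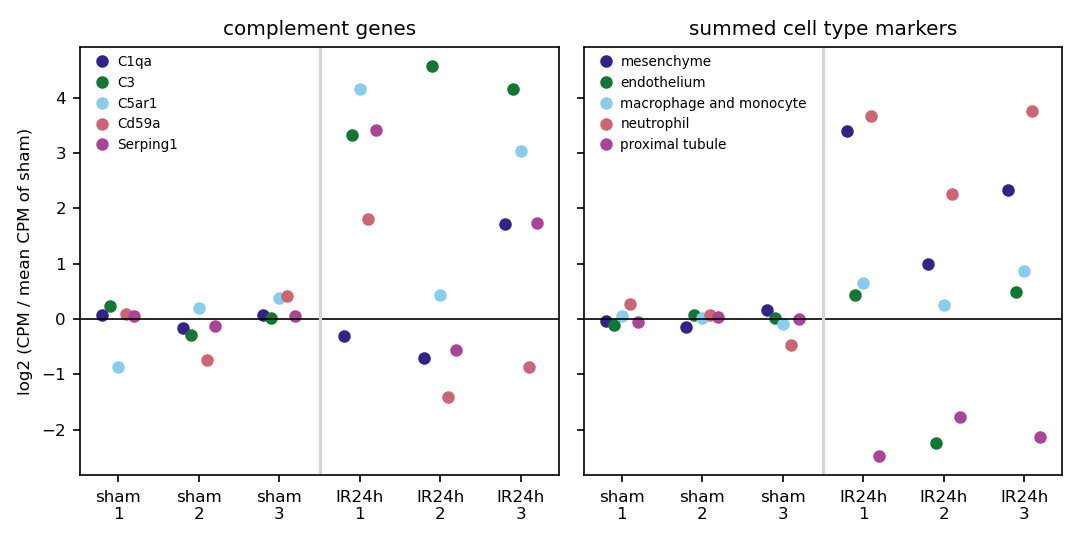
log2 of the CPM over the mean CPM of the 3 sham libraries (y axis) in each library (x axis), for 4 of the 9 genes and Serping1 on the left and for the summed CPM of 5 marker lists on the right. C3 lies above sham in all 3 IR24h libraries, Cd59a and Serping1 are highest in IR24h 1 with the mesenchymal sum, and C1qa is above sham in IR24h 3 only.

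The choice of injured libraries and of test changed how many of the 9 genes were called. Without IR24h 2, 2 of 9 were higher (C3 and C5ar1), against 23.9% of all genes, and 2 were lower (Cfb and Cd55), against 24.5%. With IR24h 2 as the only injured library, where the lone library is assumed to vary as the sham libraries do, 1 was higher (C3), against 18.8% of all genes, and 4 were lower (C1qa, C1qc, Cfb and Cd55), against 19.2%. The log2 fold changes of the C1q chains were then -0.69, -0.57 and -0.83 for C1qa, C1qb and C1qc, with edgeR adjusted p of 0.0424, 0.0646 and 0.0498. DESeq2 on all libraries called 2 higher (C3 and C5ar1), against 15.3% of all genes, and 2 lower (Cfb and Cd55), against 12.5%. C3 had a positive value and was called in each of these fits, and Cfb a negative one, also called.

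**Figure D4:**
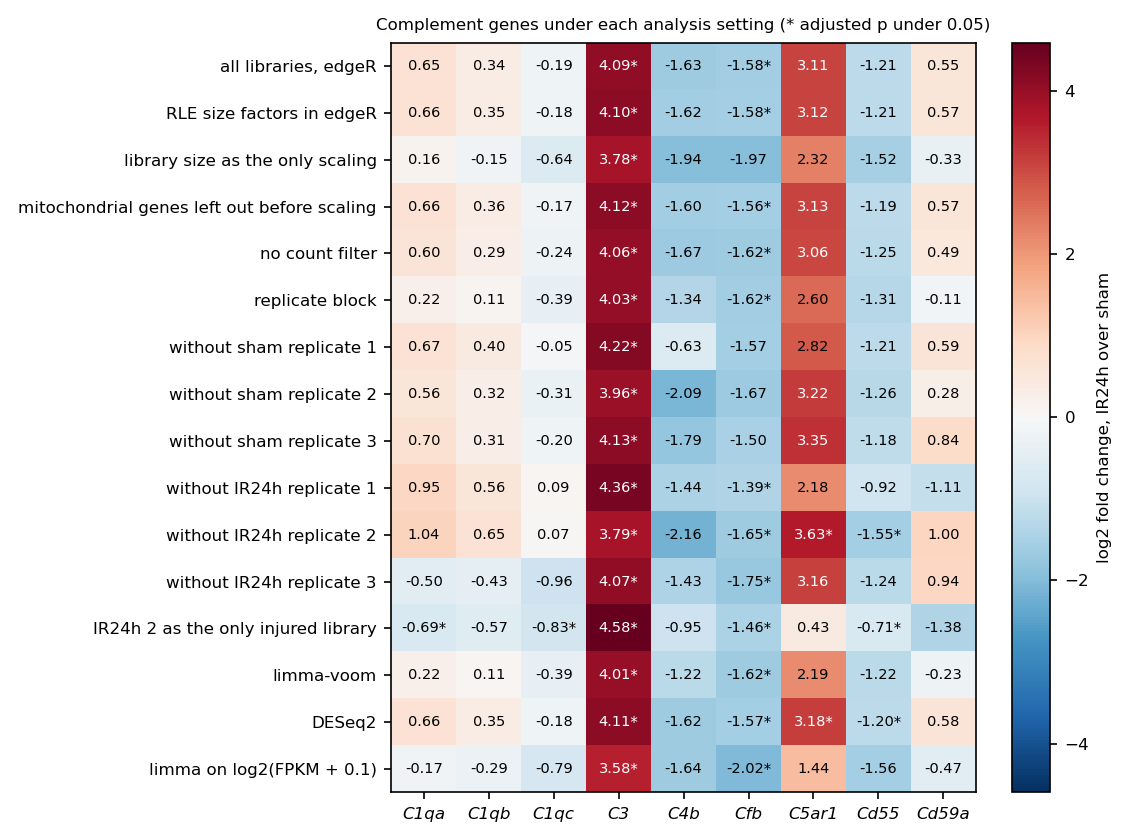
Log2 fold change (color and number) of each of the 9 genes (columns) in the fit with all libraries (top row) and under the 15 alternative settings (other rows), with a star where the adjusted p was under 0.05. C3 is starred in all rows and spans 3.58 to 4.58, and the C1q chains and Cd59a change sign between rows.

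The wider pathway was read from a list of complement genes ordered by role, of which 53 were found in the table. Of these, 32 were tested, with 3 higher (C3, C7 and Itgam), 2 lower (Cfb and C2) and 27 not called. Their median log2 fold change was 0.76, with 21 positive and 11 negative, against 0.05 over all genes tested. The other 21 were too low to be tested, and 5 of them had no counts in any library. Without the 9 genes above, 23 were tested, with 2 higher and 1 lower, against 8.65% and 7.62% of all genes. Without IR24h 2 the list had 16 higher and 5 lower, against 23.9% and 24.5% of all genes. The expression filter was applied anew in that fit. Its calls include C1s2 and Cr2, which the fit with all libraries did not test. DESeq2 gave 12 higher and 4 lower, against 15.3% and 12.5% of all genes.

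In the classical route, 8 genes were tested, 1 of them (C2) was lower and 7 were not called, with log2 fold changes of -1.63 to 1.55. In the lectin route none of 3 was called. Its gene with the highest mean CPM, Colec12, a membrane collectin that binds sugars, had 7.25, 7.65 and 7.23 CPM in sham against 102, 7.97 and 38.0 CPM in IR24h 1, 2 and 3 (log2 fold change 2.74, edgeR adjusted p 0.0547). The injured libraries of Colec12 were all above sham, but IR24h 2 only barely, and the gene length behind its deposited values differed between the groups. In the alternative route C3 was higher, Cfb was lower and properdin, Cfp, was not called at 1.43. Adipsin, Cfd, the protease that activates factor B, was not tested. It had 3.12 and 13.4 CPM in IR24h 1 and 2, 0 counts in IR24h 3, which allows up to 0.262 CPM, and at most 0.171 CPM in sham. Adipocyte markers, which mark the cells best known for making adipsin, summed to 23.1 to 32.7 CPM in sham against to 52.8, 141 and 21.2 CPM in IR24h 1, 2 and 3, in the same order as Cfd. Lipe had the highest mean CPM of that list and was not called (log2 fold change 0.04, edgeR adjusted p 0.944). It made up most of the sum in sham and IR24h 1, at 20.8 to 30.3 and 34.7 CPM. Adipoq, Plin1, Lep and Retn had 0 counts in sham and IR24h 1. In IR24h 2 they had 313, 247, 435 and 31 counts. Cidec and Plin4 had 48 and 80 counts in IR24h 1 and 381 and 866 in IR24h 2. The part of these cells in the Cfd value was not tested.

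In the terminal route C7, a component of the membrane attack complex, had 2.11, 1.78 and 1.56 CPM in sham 1, 2 and 3 against 46.2, 4.29 and 20.4 CPM in IR24h 1, 2 and 3. All injured libraries were above sham, in the same order as the mesenchymal sum (1785, 341 and 861 CPM), whose part in this value was not tested. The log2 fold change was 3.68 ± 0.80 (SE, n = 3 a group) with an edgeR adjusted p of 0.0221. Leaving out any sham library ended the call (adjusted p 0.0833 to 0.0995), as did leaving out IR24h 1 (2.74, 0.0517) or IR24h 3 (3.77, 0.0522) and the use of limma-voom (2.94, 0.0788). Over all genes, 1177 were called higher with all libraries and 283, 246 and 292 without sham 1, 2 and 3. Of the other 2 tested genes of the terminal route, C8a and C8g, neither was called, at -1.44 and -1.42.

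Among 5 tested receptor genes, Itgam alone was called. It encodes the alpha chain of complement receptor 3, found on neutrophils and monocytes, and had 7, 8 and 7 counts in sham 1, 2 and 3 and 54, 41 and 126 in IR24h 1, 2 and 3. In CPM these were 0.400, 0.385 and 0.378 against 7.67, 2.10 and 11.0, with all injured libraries above sham. Itgam had a log2 fold change of 4.12 ± 0.68 (SE, n = 3 a group) and an edgeR adjusted p of 0.0094. Leaving out any sham library ended the call (edgeR adjusted p 0.0529 to 0.0574). In those fits 246 to 292 genes were called higher over all genes, against 1177 with all libraries. Of the 50-base stretches of Itgam, 66.3% also occur in the overlapping annotation Gm49368, which was itself called higher (log2 fold change 3.01, edgeR adjusted p 0.0178), so reads may have been split between them.

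None of the 6 tested membrane regulators was called. The one with the highest mean CPM over all libraries, not scaled by length, was Cr1l, which encodes Crry, the main rodent regulator of C3-cutting enzymes on cells. Per kilobase it was below Cd59a in the mean of each group. It had 41.3, 37.7 and 41.7 CPM in sham against 29.1, 35.3 and 32.9 CPM in IR24h 1, 2 and 3. All injured values were below sham by a small margin, with a log2 fold change of -0.31 ± 0.22 (SE, n = 3 a group; 95% interval -0.83 to 0.21) and an edgeR adjusted p of 0.36. None of the 4 tested fluid-phase regulators was called either. Clu, clusterin, an inhibitor of the membrane attack complex, had the highest mean CPM, with 274, 303 and 332 CPM in sham against 328, 1948 and 1504 CPM in IR24h 1, 2 and 3. IR24h 1 lay within the sham range and the other 2 injured libraries were far above it, with a log2 fold change of 2.06 ± 0.60 (SE, n = 3 a group) and an edgeR adjusted p of 0.0558. Serping1, named after its values were seen, had the opposite order. It encodes the inhibitor of the proteases C1r and C1s and had 231, 14.9 and 72.3 CPM in IR24h 1, 2 and 3 against 20.0 to 22.8 CPM in sham. It was not called (log2 fold change 2.28, edgeR adjusted p 0.0991), and IR24h 1, its highest library, also had the highest mesenchymal sum.

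**Figure D5:**
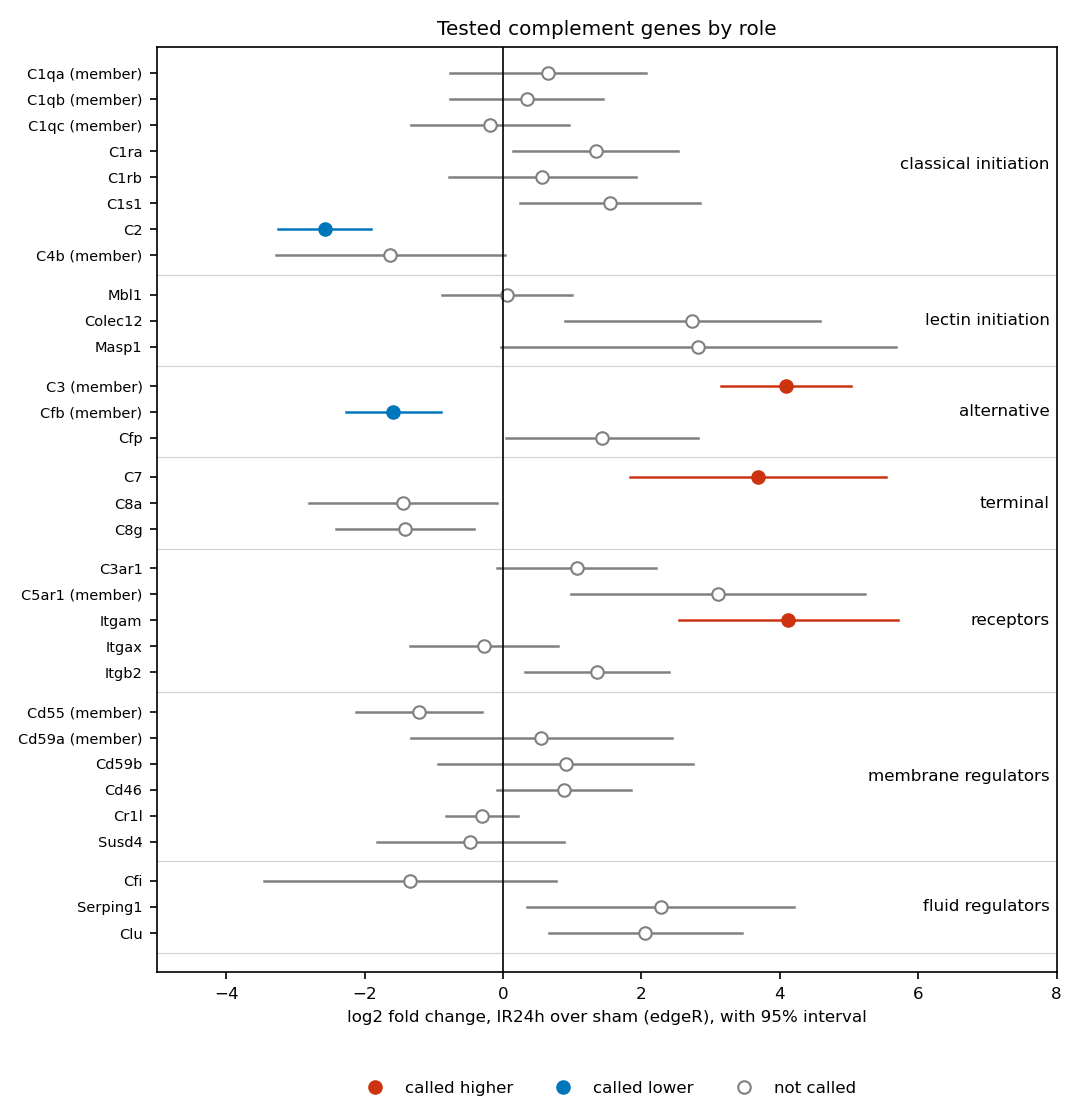
Log2 fold change of IR24h over sham with its 95% interval (x axis) for 31 tested complement genes, ordered by role, with red for genes called higher, blue for genes called lower and open circles for genes not called. C3, C7 and Itgam are called higher and C2 and Cfb lower, and the intervals of most other genes reach close to or across 0.

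Other cell types of the cortex were read from their own marker lists, whose counts stand against 8.65% higher and 7.62% lower over all genes tested. The gene named for each had the highest mean CPM over all libraries, not scaled by length. Endothelial markers summed to 378 to 426 CPM in sham against to 543, 86.1 and 566 CPM in IR24h 1, 2 and 3, with 1 of 8 called lower. Plvap, a protein of fenestrated vessels, was not called (log2 fold change 0.13, edgeR adjusted p 0.931). Lymphocyte markers were low, at 3.99 to 6.15 CPM in sham and 1.53 to 10.1 CPM in IR24h, with 0 of 2 called, Lck among them (0.24, adjusted p 0.801). Podocyte markers summed to 288 to 361 CPM in sham and 115 to 241 CPM in IR24h, with 0 of 5 called, Podxl among them (-1.03, adjusted p 0.115). Of 10 proximal tubule markers 6 were lower, led by the phosphate transporter Slc34a1 (-4.25, adjusted p 0.00157). Of 8 distal nephron markers 2 were lower, and Umod was not called (0.61, adjusted p 0.404). Among 5 hepatocyte genes 2 were higher and 1 was lower. Serpina1a, a plasma protease inhibitor, had 77.3 to 295.1 CPM in IR24h and 11.4 to 34.5 CPM in sham (3.46, adjusted p 0.0158). Ttr, a carrier of thyroid hormone and the highest of the list in sham, fell from 97.8 to 134 CPM in sham to 8.38 to 25.2 CPM in IR24h (-2.82, adjusted p 0.00746). Alb had 1.57 to 12.2 CPM in IR24h and 4.76 to 8.58 CPM in sham. The p-values here are from the same edgeR fit, and the part of any of these cell types in the complement values was not tested.

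Genes whose pattern over the 6 libraries was most like that of the complement genes were ranked by Pearson's r of log2 CPM among 9430 genes, as a description with no test. The 5 most like the mean of the 3 C1q chains were Tmem45b (r = 0.985), Ppm1d (0.985), Psmb5 (0.9754), Calcoco1 (0.973) and Nol7 (0.971). Psmb5, a catalytic subunit of the proteasome, had 95 to 108 CPM in sham against 88.3, 78.3 and 141 CPM in IR24h 1, 2 and 3, so it too was above sham in IR24h 3 only. The 5 most like C3 were Hsp90b1 (r = 0.996), Gm6793 (0.996), Epha2 (0.996), Arhgef40 (0.995) and Plec (0.995). All 5 were called higher, against 8.65% of all genes tested, but a choice by likeness to C3 favors genes that are higher in IR24h. Hsp90b1, a chaperone of the endoplasmic reticulum, had 227 to 256 CPM in sham against 505, 623 and 650 CPM in IR24h. For C3 the libraries fall in 2 groups that are far apart, and 23 genes had an r above 0.99, so such values reflect the group difference more than the pattern within a group.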

How the data were processed

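Renal cortex of 3 sham and 3 IR24h libraries was measured by RNA-seq. Per the file headers, the authors deposited raw counts per gene, which were tested, and FPKM values, counts scaled by length and library total, which served for gene lengths and an alternative. CASAVA 1.8, TopHat2 2.0.6 and the builds mm10 and GRCh38 are named in the submitters' processing notes. The read counter, annotation and strandedness are not given in the sources. Of 22040 genes listed, 83 without a sham value were left out. Genes were matched by identifier to GENCODE M21 (22010 matched), which gave coordinates, exon overlaps and shared 50-base stretches.

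Genes passing edgeR's expression filter were fitted by group with TMM scaling and tested 2-sided (edgeR 4.0.16, limma 3.58.1, DESeq2 1.42.0, R 4.3.3), and all their p-values were adjusted together (Benjamini-Hochberg). Standard errors come from the F statistic. The fit was also run on simulated counts, with an outcome not reported here. Those counts had the same dispersion in both groups, so they did not copy the wider spread of the IR24h libraries. Other steps used NumPy 2.4.6, pandas 2.3.3, matplotlib 3.10.9 and SciPy 1.17.1 in Python 3.11.15. Limits from 0 counts cover counting error only. Alternatives were other scalings, filters and tools, a replicate block, each library left out, IR24h 2 as the only injured library, and limma on log2(FPKM + 0.1).

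The genes and lists were chosen with earlier results of these data known. Named are the 9 genes, called genes of the complement list, the gene with the highest mean CPM of a role without calls and of each marker list, and the 5 genes with the highest r with the C1q mean and with C3 at a mean log2 CPM of at least 3. A further 3 symbols of the list were not analysed here, and 1 tested gene that the counts include is not reported here.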

Additional observations from a re-analysis of the deposited data

How the results depend on the processing

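C3, C2 and C4b kept their direction and their side of the threshold under all 15 alternatives, C4b uncalled. With library size as the only scaling, which moved the median over all genes from 0.05 to -0.39 on the log2 scale, 398 genes were higher and 611 lower, Cfb was -1.97 (adjusted p 0.0579), C1qb -0.15 and Cd59a -0.33. Over the fits that left out 1 library, 246 to 3297 genes were higher and 196 to 3382 lower, the low ends without a sham library and the high ends without IR24h 2. In these fits the complement list had 1 to 16 higher and 1 to 5 lower. The high ends were without IR24h 2, where the shares over all genes were 23.9% and 24.5%. Fits on fewer libraries applied the filter anew, so their tested list genes could differ from the 32 of the main fit. C1qa then ranged from -0.50 to 1.04, C1qb from -0.43 to 0.65, C1qc from -0.96 to 0.094 (0.065 without IR24h 2), Cfb from -1.75 to -1.39, C5ar1 from 2.18 to 3.63, Cd55 from -1.55 to -0.92 and Cd59a from -1.11 to 1.0. With IR24h 2 as the only injured library 2690 genes were higher and 2749 lower, the list had 5 higher and 10 lower, C1qa was -0.69, C1qb -0.57, C1qc -0.83, Cd55 -0.71 and Cd59a -1.38. DESeq2 gave 2073 higher and 1695 lower, 12 and 4 in the list, C5ar1 at 3.18 and Cd55 at -1.20. Without a count filter the list had 6 higher, among them C5ar2 and Cfd, which the main fit did not test. Limma on log2(FPKM + 0.1) gave 678 higher, 4 lower in the list, C1qa at -0.17, C1qb at -0.29 and Cd59a at -0.47, and limma-voom gave Cd59a at -0.23. With exon lengths from GENCODE the C1qc share in sham was 17.4%. The cause of these changes was not tested, except that fits with fewer libraries have fewer samples.

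The replicate numbers gave no clear sign of pairing between sham and IR24h libraries. Correlations of their deviations were -0.10, 0.10 and 0.20 for numbers 1, 2 and 3, against -0.24 to 0.16 for pairs of unlike numbers. With 3 libraries a group, such values cannot exclude a pairing. With the replicate block Cd59a was -0.11, and the calls of the 9 genes were 1 higher and 1 lower as without it.

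With 3 libraries a group and a common biological coefficient of variation of 0.394, wide intervals remained for most of the 9 genes. C5ar1 rested on 4 to 52 counts a library. Mitochondrial counts left 4008001 other counts in IR24h 1, the fewest of the 6 libraries.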
